A study of Mus musculus with 19 samples.

Results

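Fibroblasts of the mouse peritoneum at the end stage of ovarian carcinoma growth were compared with those of tumour-free mice, by sequencing of their polyadenylated RNA. The 4 end stage libraries (replicates 2 to 5) and the 5 normal libraries (replicates 1 to 5), taken as the labels name them, are 9 of the 19 libraries of the study, and 5980 of 12799 genes had enough counts to be tested. All mice were C57BL/6;Col1a1-YFP animals, in which a yellow fluorescent protein is driven by Col1a1, the gene of a type I collagen chain, so the sort took cells with activity of that promoter. End stage mice had received ID8-tdTomato cells, a mouse ovarian carcinoma line carrying a red fluorescent protein, into the peritoneal cavity in 200 µL of PBS, and normal mice had received PBS alone. The sources used here do not state the day of the end stage or the age and sex of the mice. The remaining libraries, 5 from day 7 and 5 from day 28 after injection of the same cells, share the fit and are used below to place the end stage values. Each library was labelled as a separate biological replicate from 1 mouse. All peritonea were dissociated with collagenase P (0.75 mg/mL) and trypsin for 40 minutes at 37 °C, and red cells were lysed.

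Fibroblasts lie beneath the mesothelium, the single cell layer that covers the peritoneum and over which ovarian carcinoma spreads. They make and cross-link the collagens, elastin and proteoglycans of the matrix, and they secrete chemokines, growth factors and complement components that act on neighbouring cells. In tumours, activated fibroblasts are known for increased matrix production, contractile proteins and changed metabolism, with lactate export as one of its features.

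Total counts ran from 186032 to 784373 in the normal libraries and from 113163 (replicate 5) to 2449339 (replicate 4) in the end stage libraries, a ratio of 21.6 between the deepest and the shallowest of the 9. A floor of 3 counts corresponded to 3.82 to 16.1 counts per 1000000 (CPM) in normal and 1.22 to 26.5 CPM in end stage libraries, so low levels in the shallow libraries are uncertain by counting error alone. The defining fibroblast markers Col1a1, Col1a2, Col3a1, Dcn, Lum, Pdgfra, Pdgfrb, Thy1 and Vim were above 0 in all 9 libraries, with Col1a2, a type I collagen chain, at 9279 to 16065 CPM. Along the first principal component of the 9 libraries (36.8% of the variance of 500 genes), end stage replicate 5, the shallowest library, stood apart at 40.5 against -14.7 to 5.42 for the others. Each call that was lost without that library is named beside its value.

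At the end stage, 24 of 5980 genes were called (0.401%), 19 higher (0.318%) and 5 lower (0.0836%), at an adjusted p under 0.05 (edgeR quasi-likelihood F test, Benjamini-Hochberg). The genes that rose included those of matrix proteins (Mgp, Bgn, Eln, Col8a1, Svep1, Cthrc1) and a chemokine (Cxcl14). Genes of receptors for thrombin and WNT ligands (F2r, Fzd1) and of a protease inhibitor, a complement factor and a kininogen (Serpina3n, Cfb, Kng2) rose too. Also higher were those of a lactate transporter and a mitochondrial protein (Slc16a3, Ndufa4l2), a steroid and retinoid oxidase (Cyp1b1), the transcription factor Runx1 and the globin Hbb-bs. The genes that fell were Fosb, Cdkn1a, Plpp3, Fmo2 and the predicted gene Gm4366. Log2 fold changes ran from 1.14 to 3.05 among the genes that rose and from -2.24 to -1.07 among those that fell, and the median over all tested genes was -0.02. Levels of the groups did not overlap for 20 of the 24 called genes, and for 190 of all 5980 tested genes (3.18%), 100 with end stage higher (1.67%) and 90 with end stage lower (1.51%). Before adjustment 421 genes had a p under 0.05, where chance alone gives 299. In the authors' deposited table, 28 genes were higher and 12 lower at an adjusted p under 0.05, and 22 of the 24 called here were among them, with Kng2 and Cthrc1 the exceptions. Leaving out normal replicate 4 left 3 higher and 0 lower calls, and leaving out end stage replicate 4, the deepest library, left 6 higher and 1 lower. Leaving out the shallowest library of each group, end stage replicate 5 and normal replicate 1, gave 12 higher and 2 lower calls, an alternative chosen after seeing the data. These include newly called genes, and 12 of the 24 calls were kept.

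**Figure D1:**
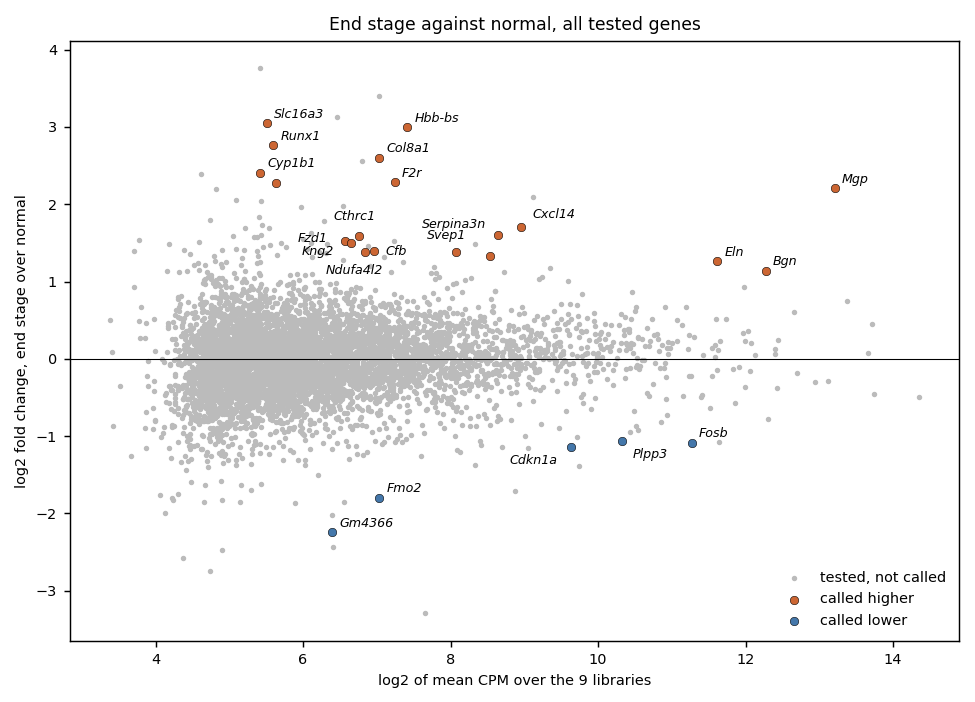
Log2 fold change of end stage over normal (vertical axis) against the log2 of the mean CPM over the 9 libraries (horizontal axis), with 1 point per tested gene. The 19 genes called higher (orange) and the 5 called lower (blue) are coloured, 22 of them are named, and each has a log2 fold change of at least 1 in size.

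Cxcl14, F2r, Col8a1 and Slc16a3 were called against normal, day 7 and day 28 libraries alike, as were Serpina3n and Bgn. Promoters are shown for the former genes because they are the markers set for this comparison. The sequences are RefSeq's windows on GRCm38.p6, another build than the GRCm39 named in the submitters' processing notes, and run from 250 bases before to 50 bases after the annotated start, 5′ to 3′ on the strand of the gene. Capitals mark matches, on either strand, to the core of the hypoxia response element (ACGTG), the RUNX core (TGTGGT) or the AP-1 element (TGANTCA), motifs chosen after the called genes were known.
Cxcl14, chr13:56296502-56296801, minus strand: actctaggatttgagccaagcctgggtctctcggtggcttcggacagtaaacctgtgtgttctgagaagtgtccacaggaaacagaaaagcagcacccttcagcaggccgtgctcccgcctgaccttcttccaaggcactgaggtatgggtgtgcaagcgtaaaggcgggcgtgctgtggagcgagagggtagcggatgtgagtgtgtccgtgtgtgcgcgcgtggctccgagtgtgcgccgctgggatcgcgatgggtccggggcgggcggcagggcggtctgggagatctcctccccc
F2r, chr13:95618417-95618716, minus strand: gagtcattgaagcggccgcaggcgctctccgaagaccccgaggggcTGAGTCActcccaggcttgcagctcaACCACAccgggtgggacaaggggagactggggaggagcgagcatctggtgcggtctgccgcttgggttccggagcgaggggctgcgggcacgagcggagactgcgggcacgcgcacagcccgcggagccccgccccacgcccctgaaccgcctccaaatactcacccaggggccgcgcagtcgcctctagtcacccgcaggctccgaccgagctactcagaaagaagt
Col8a1, chr16:57754688-57754987, minus strand: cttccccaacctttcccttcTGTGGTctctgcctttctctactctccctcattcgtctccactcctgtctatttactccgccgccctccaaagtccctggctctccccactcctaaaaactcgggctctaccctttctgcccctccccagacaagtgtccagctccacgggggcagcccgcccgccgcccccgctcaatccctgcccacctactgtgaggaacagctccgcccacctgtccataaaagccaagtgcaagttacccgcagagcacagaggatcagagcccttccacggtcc
Slc16a3, chr11:120948817-120949116, plus strand: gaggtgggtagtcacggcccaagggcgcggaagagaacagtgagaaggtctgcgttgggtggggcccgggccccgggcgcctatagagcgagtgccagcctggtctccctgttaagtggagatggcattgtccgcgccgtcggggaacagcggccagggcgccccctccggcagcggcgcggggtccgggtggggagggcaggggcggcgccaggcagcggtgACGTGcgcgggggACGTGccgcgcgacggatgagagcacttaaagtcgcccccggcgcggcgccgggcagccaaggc
The Slc16a3 window held ACGTG at 2 places, the F2r window 1 RUNX core and 1 AP-1 element, the Col8a1 window 1 RUNX core, and the Cxcl14 window none of the 3. Among all 32851 promoter windows of the table, 19.6% held ACGTG, 16.8% TGTGGT and 7.81% TGANTCA, so such matches are common and mark no site. A window was found for 16 of the 24 called genes.

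Among the secreted signals, Cxcl14, a chemokine that attracts monocytes and dendritic cells, rose at the end stage. It stood at 312, 200.0, 338, 192 and 208 CPM in normal replicates 1 to 5 and at 585, 701, 949.6 and 989.7 CPM in end stage replicates 2 to 5. Every end stage library lay above every normal library, and the spread within each group was smaller than the gap between the means of 249.97 ± 69.2 (SD, n = 5) and 806 ± 195 (SD, n = 4). The log2 fold change was 1.70 ± 0.25 (SE; adjusted p = 0.000365), the lowest adjusted p of the comparison, and the call held with each of the 9 libraries left out in turn. Of 11 tested chemokines, 7 were positive with 1 called (median 0.21), and of 19 tested interleukins and receptors 14 were positive (median 0.32). Cxcl12, which retains leukocytes through CXCR4, was at 0.67 ± 0.27, Osmr, the oncostatin M receptor, at 1.03 ± 0.34, Ccl2 at 0.21 ± 0.72 and Il6 at 0.32 ± 0.66, none of them called. The signs of Ccl2 and Il6 turned under several alternatives, and the chemokine median turned to -0.13 without end stage replicate 4.

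Among the receptors, F2r, the protease-activated receptor for thrombin, stood at 69.4, 74.5, 53.5, 45.3 and 41.6 CPM in normal replicates and 244, 326, 414 and 91.6 CPM in end stage replicates. End stage replicate 5, at 10 counts, was the lowest of its group and still above the normal range. The log2 fold change was 2.29 ± 0.35 (SE; adjusted p = 0.000567), from a mean of 56.9 ± 14.5 (SD, n = 5) to 269 ± 137 CPM (SD, n = 4), and held with each library left out. Fzd1, a receptor of WNT proteins, stood at 17.3, 67.6, 65.9, 61.3 and 44.8 CPM in normal and 141, 92.4, 253 and 110.0 CPM in end stage libraries, without overlap. Its log2 fold change was 1.53 ± 0.34 (adjusted p = 0.024), and the call did not hold without normal replicate 1, 3, 4 or 5 or end stage replicate 4 (adjusted p 0.0506 to 0.445), with the compared groups alone (0.0766), with thinning (0.072) and without the shallowest libraries (0.0508). No other gene of the lists that hold these receptors was called. Of 24 tested WNT genes, 13 were positive (median 0.06), with the WNT antagonist Sfrp1 at 0.87 ± 0.30, the intracellular inhibitor Nkd2 at 1.78 ± 0.52 and the WNT agonist Rspo1 at -1.02 ± 0.31. Of 14 tested genes of fibrinolysis and coagulation control, 8 were positive (median 0.10). Serpine2, an inhibitor of thrombin and plasminogen activators, stood at 52.0 to 88.3 CPM in normal and 65.4 to 312 CPM in end stage libraries and missed the threshold (1.47 ± 0.36, adjusted p = 0.0544). Ephb3, an ephrin receptor, was at 1.499 ± 0.37 (adjusted p = 0.0578) and Notch3, a receptor of mural cells and activated fibroblasts, at 2.04 ± 0.55 (adjusted p = 0.103), neither called.

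Of the called genes, 6 code for matrix proteins and all 6 were higher, a grouping made after the calls were known. Of these, Bgn, Eln and Col8a1 are members of the matrix lists, Mgp and Cthrc1 of other lists and Svep1 of none. Mgp, matrix Gla protein, an inhibitor of calcification that binds bone morphogenetic proteins, was at 3683, 3806, 6295, 1793 and 2546 CPM in normal and 26731, 19092, 15408 and 5838 CPM in end stage libraries. End stage replicates 2 to 4 lay far above all normal libraries, and replicate 5 lay below normal replicate 3. The log2 fold change was 2.21 ± 0.45 (SE; adjusted p = 0.0321). Bgn, biglycan, a small leucine-rich proteoglycan that binds collagen and TGF-beta, stood at 3116, 3915, 3639.7, 2571 and 2857 CPM in normal and 6835, 8256, 8026 and 5224 CPM in end stage libraries, without overlap. It rose by a log2 fold change of 1.14 ± 0.22 (adjusted p = 0.00982), from 3219.7 ± 553 (SD, n = 5) to 7085 ± 1389 CPM (SD, n = 4). Eln, elastin, the core of elastic fibres, was at 1058, 2351, 1865, 1708 and 2639 CPM in normal and 3519, 3757, 5797 and 5453 CPM in end stage libraries. Its groups did not overlap, with normal replicate 1 the lowest, and its log2 fold change was 1.26 ± 0.27 (adjusted p = 0.0214). Col8a1, a chain of the network-forming collagen VIII of vessel walls, stood at 28.9, 48.3, 28.8, 34.6 and 60.9 CPM in normal and 148, 164, 513 and 147 CPM in end stage libraries. End stage replicate 4 was the highest, and the other 3 end stage libraries were also above all normal ones (2.60 ± 0.42, adjusted p = 0.000929), a call that held with each library left out. Svep1, a large adhesion protein of the matrix, rose from 123 to 205 to 264 to 646 CPM (1.38 ± 0.31, adjusted p = 0.0264). Cthrc1, a secreted collagen repeat protein of activated fibroblasts, went from 17.3 to 90.6 CPM in normal to 79.6 to 346 CPM in end stage libraries with overlap (1.59 ± 0.38, adjusted p = 0.0485).

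The matrix calls differed in how far they rested on 1 library. The call of Bgn was lost without normal replicate 4 alone (adjusted p 0.0562). That of Eln was lost without normal replicate 1, 3 or 4 or end stage replicate 4 or 5 (adjusted p 0.055 to 0.127) and without the shallowest libraries (0.132). That of Mgp was lost without any 1 library other than normal replicate 3 and end stage replicate 5 (adjusted p 0.0656 to 0.127), with limma-voom (0.0551) and with no filter (0.0667). That of Svep1 was lost without any 1 library other than end stage replicates 2 and 3 (adjusted p 0.0551 to 0.362) and without the shallowest libraries (0.106). That of Cthrc1 was lost without any of the normal replicates or end stage replicate 4 (adjusted p 0.0562 to 0.653) and under 10 other alternatives.

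Around these calls the collagen and matricellular lists leaned towards higher levels, with few members called. The other matrix lists had medians nearer to that of all genes, among them integrins (8 of 14 positive, median 0.04). All 6 tested fibrillar collagens were positive (median 0.60, against -0.02 over all tested genes) and 0 were called, with Col3a1, a type III collagen chain, at 0.75 ± 0.24, Col5a1 at 0.54 ± 0.24 and Col1a1 at 0.67 ± 0.38. Without end stage replicate 4, 5 of 7 tested fibrillar collagens were positive, at a median of 0.29. Of 10 other collagens, 8 were positive with Col8a1 called (median 0.40), and Col12a1 was at 0.85 ± 0.40. Matricellular genes, whose products signal from the matrix rather than build it, were positive in 15 of 20 (median 0.49) and none was called. Their summed level was 27731 to 32505 CPM in normal and 37866 to 42049 CPM in end stage libraries, with no overlap. The most abundant tested members, which weigh most in the sum, were Sparc (means 11595 and 15819 CPM) and Igfbp7 (5234 and 7959 CPM). Among 56 lists, sums also parted upwards for elastic fibre, collagen processing, cancer-associated fibroblast, BMP, MHC class II and mural genes. The notch and hedgehog sum was lower without overlap, and the sums of all other lists overlapped. Ccn2, connective tissue growth factor, stood at 237, 252, 181, 224 and 253 CPM in normal and 251, 382, 2631 and 596 CPM in end stage libraries. End stage replicate 4 was far above the others and replicate 2 was within the normal range, and the difference was not called (2.09 ± 0.49, adjusted p = 0.0716). Postn, periostin, was at 1.49 ± 0.42, Ccn3 at 0.88 ± 0.28 and Tgfbi at -0.92 ± 0.34, also not called.

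Enzymes and inhibitors of the matrix gave a mixed picture. Of 20 tested collagen processing genes, 14 were positive and 0 called (median 0.25). Lox, lysyl oxidase, which cross-links collagen and elastin, stood at 225, 277, 272, 293 and 329.9 CPM in normal and 513, 449, 1089.8 and 339 CPM in end stage libraries. All end stage libraries were above all normal ones, and the difference narrowly missed the threshold (1.12 ± 0.27, adjusted p = 0.0541). Its relative Loxl1 was at 0.62 ± 0.22 and the prolyl hydroxylase partner Crtap at 0.78 ± 0.28. Of 18 matrix proteases and inhibitors, 9 were positive and 9 negative (median 0.00497). Timp1, an inhibitor of matrix metalloproteinases, was at 4.12 to 57.7 CPM in normal and 110.1 to 246 CPM in end stage libraries (1.97 ± 0.47, adjusted p = 0.0544), whereas Timp2 was at 3568 to 4860.0 and 2287 to 3577 CPM (-0.57 ± 0.20, adjusted p = 0.291), neither called. Basement membrane genes were positive in 9 of 13 (median 0.07, and -0.02 without end stage replicate 2), with Col4a2 at 1.01 ± 0.27 and Col4a1 at 0.87 ± 0.26. Of 16 elastic fibre genes 10 were positive (median 0.22), and beside Eln the fibulin Efemp1 was at -0.64 ± 0.27 and the latent TGF-beta binding protein Ltbp1 at -0.72 ± 0.29. Of 10 small leucine-rich proteoglycans 6 were positive (median 0.28, and -0.09 without end stage replicate 3), with Podn at 0.61 ± 0.23. Of 16 hyaluronan and proteoglycan genes 11 were positive (median 0.14), with the heparan sulphate carriers Gpc1 at 1.80 ± 0.55, Sdc3 at 1.58 ± 0.49 and Gpc3 at -0.84 ± 0.27. Apart from Eln, none of these genes was called.

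**Figure D2:**
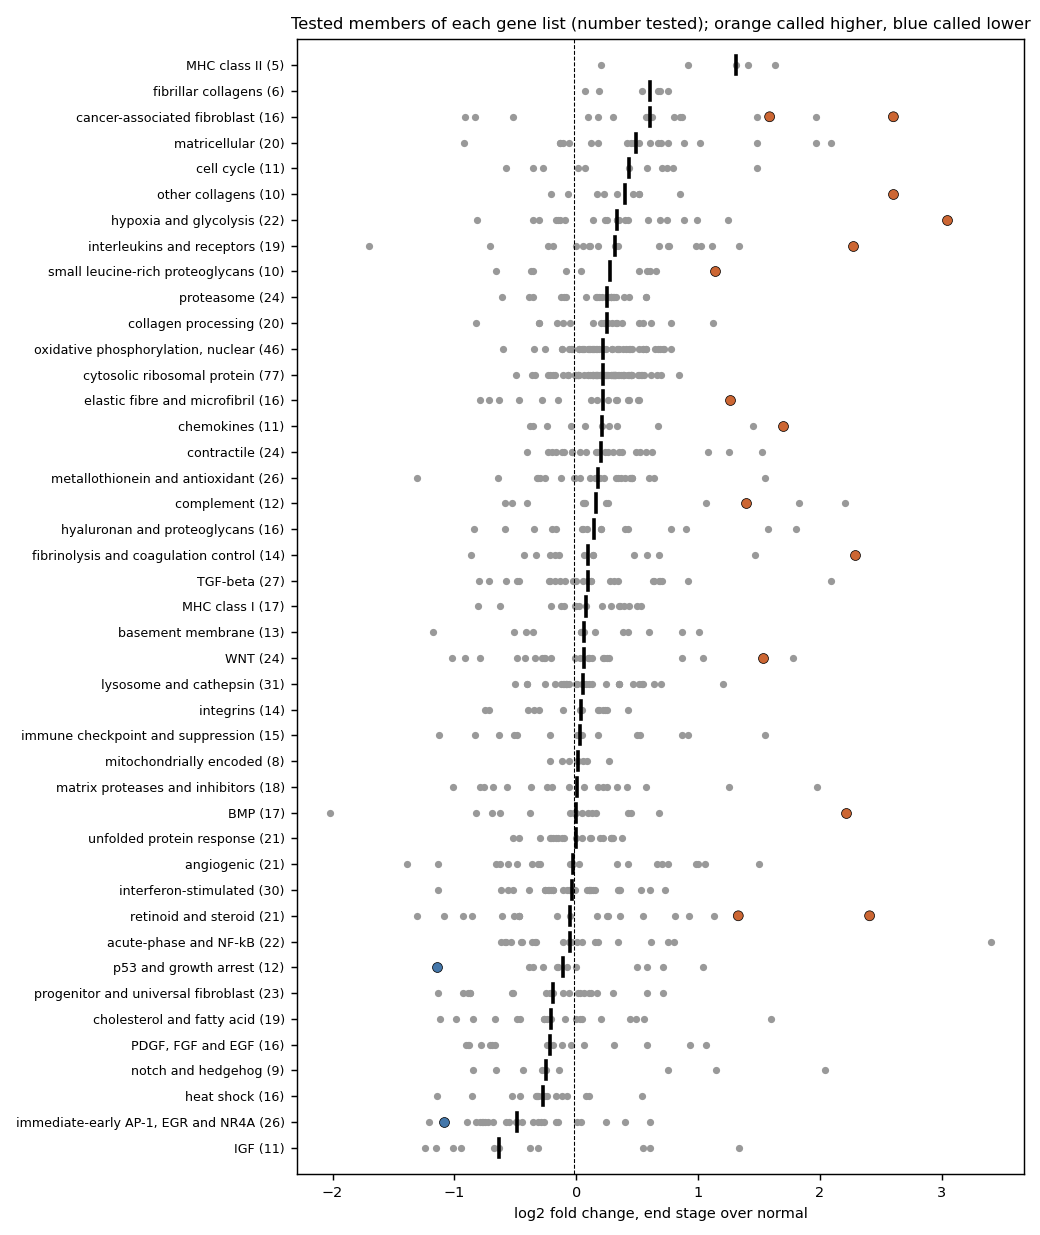
Log2 fold change of end stage over normal (horizontal axis) of every tested member of 43 gene lists with at least 5 tested members (1 row per list, number tested in brackets), with a black bar at the list's median and a dashed line at the median of all tested genes, -0.02. Called members are orange (higher) or blue (lower), and single called genes lie far from the medians of their lists, which run from -0.63 for IGF genes to 1.31 for MHC class II genes.

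Fibroblast state markers were read in the same way. Of 16 tested genes of cancer-associated fibroblasts, 13 were positive and 2 were called, Col8a1 and Cthrc1 (median 0.60). Their summed level was 3258, 3278, 3794, 2786 and 2836 CPM in normal and 3833, 3900.3, 5487 and 3835 CPM in end stage libraries, with no overlap, although end stage replicates 2, 3 and 5 lay just above normal replicate 3. Of 24 contractile genes, 16 were positive and 0 called (median 0.20). Acta2, smooth muscle actin, was at 37.1 to 287 CPM in normal and 99.8 to 266 CPM in end stage libraries (0.63 ± 0.45, adjusted p = 0.892), with full overlap. Tagln, an actin-binding protein, was at 1.52 ± 0.45 and Actn1, an actin cross-linker, at 1.25 ± 0.35, neither called. Progenitor and universal fibroblast genes were negative in 14 of 23 with 0 called (median -0.19, and 0.01 without end stage replicate 4). Cd34, a surface sialomucin of resting fibroblasts, stood at 1971, 2006, 1762, 1772 and 1630.3 CPM in normal and 1242, 1401, 611 and 733 CPM in end stage libraries, with no overlap and a difference that was not called (-0.87 ± 0.23, adjusted p = 0.0815). Pdgfra, a growth factor receptor of fibroblasts, was at -0.89 ± 0.34, its relative Pdgfrb at 0.58 ± 0.23, the scavenger receptor Scara5 at -0.87 ± 0.28 and the semaphorin Sema3c at -1.13 ± 0.37, none called.

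Protease inhibitors, complement and kinin genes gave 3 calls. Serpina3n, a secreted inhibitor of serine proteases from an expanded mouse gene cluster, stood at 231, 215, 317, 194 and 96.1 CPM in normal and 643, 354, 897 and 641 CPM in end stage libraries. The groups did not overlap, and end stage replicate 3 came closest to the normal range. It rose by a log2 fold change of 1.60 ± 0.30 (SE; adjusted p = 0.00894), a call lost without normal replicate 4 or end stage replicate 4 (adjusted p 0.0516 to 0.0668). Cfb, complement factor B of the alternative pathway, was at 80.9, 75.9, 53.5, 82.6 and 60.9 CPM in normal and 213, 139, 153 and 266 CPM in end stage libraries, without overlap. Its log2 fold change was 1.39 ± 0.29 (adjusted p = 0.0214), and the call did not hold without normal replicate 3, 4 or 5 or end stage replicate 5 (adjusted p 0.0538 to 0.0669), without libraries under 150000 counts (0.0618) and without the shallowest libraries (0.0787). Kng2, a kininogen with a close relative in the mouse genome, rose from 38.4 to 79.9 to 87.3 to 330.4 CPM (1.501 ± 0.36, adjusted p = 0.0485), with end stage replicate 4 far above the other 3. That call was lost without any of the normal replicates or end stage replicate 4 (adjusted p 0.0669 to 0.762) and under 8 other alternatives. How reads shared with near-identical relatives were counted is not stated, which leaves the levels of Serpina3n and Kng2 uncertain to that extent.

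Among the complement and MHC class II lists, Cfb was the one gene called. Of 12 tested complement genes, 9 were positive with 1 called (median 0.16), among them C4b at 1.06 ± 0.34 (adjusted p = 0.223). All 5 tested MHC class II genes were positive and none was called (median 1.31, 1.03 to 1.59 with each of the 9 libraries left out in turn). Cd74, the invariant chain, stood at 23.1, 33.1, 65.9, 37.3 and 19.2 CPM in normal and 58.5, 59.0, 170.0 and 156 CPM in end stage libraries (1.63 ± 0.45, adjusted p = 0.112), and replicates 2 and 3 of the end stage overlapped normal replicate 3. H2-Eb1 was at 1.41 ± 0.55, H2-Aa at 1.31 ± 0.58 and H2-Ab1, at 71.7 to 96.3 CPM in end stage libraries against 12.4 to 111.2 CPM, at 0.91 ± 0.97, none called. The summed class II level was 194, 219, 343, 218 and 210.1 CPM in normal and 344, 373, 529.9 and 424 CPM in end stage libraries. In the same libraries the summed level of macrophage and monocyte markers was 91.4, 182, 164, 153 and 148 CPM in normal and 174, 203, 644 and 336 CPM in end stage libraries, highest in end stage replicates 4 and 5, where Cd74 was highest too. C1qa, a macrophage complement gene, was at 1.83 ± 0.60 and C1qb at 2.20 ± 0.83, not called, and the leukocyte marker Ptprc had 0 counts in normal and 7 counts in end stage libraries, 6 of them in the deepest, replicate 4. The part of such cells in the class II and complement levels was not tested. In these bulk samples, fewer cells of a type and less RNA per cell cannot be told apart.

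Other inflammatory lists stood near the median of all genes. Interferon-stimulated genes were positive in 14 of 30 with 0 called (median -0.04), and the GTPase gene Irgm1 was at -1.14 ± 0.45. MHC class I genes were positive in 10 of 17 with 0 called (median 0.08, and -0.04 without normal replicate 5), with Psmb8 at 0.50 ± 0.33. Acute-phase and NF-kB genes were positive in 9 of 22 with 0 called (median -0.05). Within that list Saa3, serum amyloid A, stood at 40.5, 9.66, 65.9, 10.7 and 9.61 CPM in normal and 31.0, 51.3, 418 and 541 CPM in end stage libraries. End stage replicates 4 and 5 were high and replicates 2 and 3 were within the normal range, and the difference was not called (3.41 ± 0.83, adjusted p = 0.103). Among 15 tested genes of immune checkpoints and suppression, 9 were positive and none called (median 0.03), with Tgfb1 at 0.92 ± 0.42, Cd276 at 0.87 ± 0.39 and Hmox1, haem oxygenase, at 1.55 ± 0.56. Of 27 TGF-beta genes, 15 were positive and 0 called (median 0.09), with the ligand Tgfb3 at 0.68 ± 0.27 and the co-receptor Tgfbr3 at -0.80 ± 0.27.

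Genes of lactate export, mitochondria and steroid oxidation were among those that rose. Slc16a3, the lactate exporter MCT4, stood at 28.9, 5.52, 12.4, 2.66 and 12.8 CPM in normal and 65.4, 121, 79.1 and 82.5 CPM in end stage libraries. Normal levels rested on 1 to 5 counts per library, and the lowest end stage library was above the highest normal one. It rose by a log2 fold change of 3.05 ± 0.58 (SE; adjusted p = 0.00894), and the call did not hold without normal replicate 4 (adjusted p 0.0562) and with thinning to 200000 counts (0.0727). Ndufa4l2, a mitochondrial protein induced by hypoxia and also a marker of mural cells, was at 69.4, 80.0, 49.4, 66.6 and 70.5 CPM in normal and 162, 249, 166 and 119 CPM in end stage libraries, without overlap (1.38 ± 0.31, adjusted p = 0.0264). Its call fell away without normal replicate 1, 3, 4 or 5 or end stage replicate 3 or 4 (adjusted p 0.0519 to 0.121) and with thinning (0.0957). The summed mural markers, which include Ndufa4l2, were 288 to 478 CPM in normal and 505 to 789.7 CPM in end stage libraries, with 5 of 6 tested members positive, and their part in the result was not tested. Of 22 hypoxia and glycolysis genes, 15 were positive with Slc16a3 called (median 0.33), among them Ldha, a lactate dehydrogenase subunit, at 0.88 ± 0.26 and Pkm, pyruvate kinase, at 0.59 ± 0.24.

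Cyp1b1, a cytochrome P450 that oxidises steroids and retinoids, was at 6.41 to 23.1 CPM, from 2 to 8 counts a library, in normal and 43.6 to 153 CPM in end stage libraries (2.41 ± 0.53, SE, adjusted p = 0.0238). Its call did not hold without normal replicate 2, 3, 4 or 5 or end stage replicate 4 (adjusted p 0.0506 to 0.627). Cyp1b1 was not tested with thinning or with a stricter filter. The median of the 21 tested retinoid and steroid genes was -0.05. Runx1, a transcription factor of blood and mesenchymal development, stood at 0, 19.3, 4.12, 18.6 and 19.2 CPM in normal and 65.4, 20.5, 196 and 91.6 CPM in end stage libraries. Normal replicate 1 had 0 counts, and end stage replicate 3, at 8 counts, lay only just above the normal range. The log2 fold change was 2.77 ± 0.58 (adjusted p = 0.0214), and the call fell away without normal replicate 3 or 4 or end stage replicate 4 (adjusted p 0.0551 to 0.585), with limma-voom (0.115) and without the shallowest libraries (0.0508). Runx1 was not tested with thinning, with a stricter filter or with the compared groups alone.

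Hbb-bs, an adult beta-globin of red cells, was at 46.2, 38.6, 8.23, 82.6 and 28.8 CPM in normal and 41.3, 631, 373 and 284 CPM in end stage libraries. End stage replicates 3, 4 and 5 were above all normal libraries, and replicate 2 was among them. Its log2 fold change was 3.00 ± 0.60 (SE; adjusted p = 0.0264), and the call was lost without any 1 library other than end stage replicate 2 (adjusted p 0.0516 to 0.127) and under 7 other alternatives. The other tested globins were also positive without being called, Hba-a1 at 2.57 ± 0.60, Hba-a2 at 3.13 ± 0.85 and Hbb-bt at 3.76 ± 0.88, and reads shared among these near-identical genes leave each level uncertain. The summed erythrocyte markers were 151, 95.6, 59.6, 129.8 and 65.7 CPM in normal and 62.0, 1575, 723 and 574 CPM in end stage libraries, and Alas2, the haem synthesis enzyme of red cell precursors, had 1 count in normal and 18 in end stage libraries, 14 of these in the deepest, replicate 4, and 4 in replicate 3. The part of red cells in this call was not tested.

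**Figure D3:**
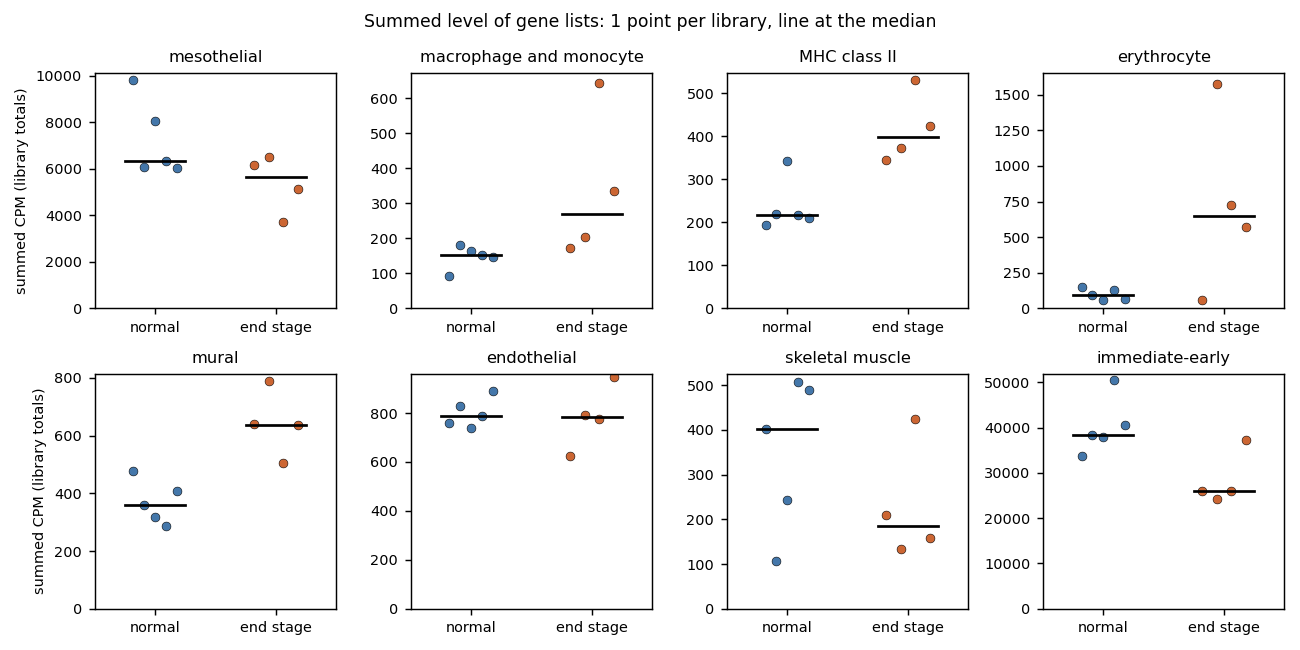
Summed CPM on library totals (vertical axes, each from 0) of 8 gene lists in the 5 normal (blue) and 4 end stage (orange) libraries, with 1 point per library and a line at the median. Mural and MHC class II sums are higher in every end stage than in every normal library, erythrocyte sums are high in 3 of 4 end stage libraries, and immediate-early sums are lower in 3 of 4.

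Of the genes that fell, Fosb, a subunit of the AP-1 transcription factor that is induced within minutes by stimuli and by tissue dissociation, was called within its list. It stood at 2891, 3464, 3047, 4020.0 and 2687 CPM in normal and 1692, 1719, 982 and 1686 CPM in end stage libraries. All end stage libraries were below all normal ones, with end stage replicate 4 the lowest. The log2 fold change was -1.09 ± 0.24 (SE; adjusted p = 0.0264), and the call did not hold without normal replicate 2, 3 or 4 or end stage replicate 4 (adjusted p 0.055 to 0.224), with the compared groups alone (0.0514), without libraries under 150000 counts (0.0635) and without the shallowest libraries (0.0563). Of 26 tested immediate-early genes, 21 were negative with Fosb called (median -0.49), and 13 were lower at an unadjusted p under 0.05, as were 200 of all 5980 tested genes (3.34%). Egr1, a zinc finger factor, was at -0.78 ± 0.23, Zfp36, which destabilises messenger RNAs, at -0.82 ± 0.25 and Rhob, a small GTPase, at -0.79 ± 0.23, none called. The summed level of the list was 33682, 38441, 37947, 50606 and 40535 CPM in normal and 25939.9, 24166, 26091 and 37247 CPM in end stage libraries, lower in end stage replicates 2 to 4 and within the normal range in replicate 5. With this sum as a covariate, 23 of the 24 calls were lost (adjusted p 0.0782 to 0.619), and Cxcl14 alone remained. The log2 fold changes of the lost calls kept their direction, at 59.5% (Fmo2) to 125% (Svep1) of their size without the covariate, and 10 of the 23 were at least as large with it as without it. Col8a1 was at 2.67 with the covariate, F2r at 2.11 and Fosb at -0.67. Fosb is itself part of the sum, so its value with the covariate is not independent of it. The sum itself differs between the groups, so its share and that of the tumour stage cannot be told apart in these libraries.

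Cdkn1a, the cell cycle inhibitor p21, stood at 849.8, 893, 1186, 1593 and 714 CPM in normal and 547, 513, 379.7 and 458 CPM in end stage libraries, without overlap. Its log2 fold change was -1.15 ± 0.25 (SE; adjusted p = 0.0238), and the call did not hold without normal replicate 3 or 4 or end stage replicate 4 or 5 (adjusted p 0.0557 to 0.166), with the compared groups alone (0.0766), without libraries under 150000 counts (0.0737) and without the shallowest libraries (0.0542). Of 12 tested genes of p53 and growth arrest, 7 were negative with Cdkn1a called (median -0.11), with Phlda3 at 1.04 ± 0.30 and Gadd45g at 0.71 ± 0.25. Plpp3, a phosphatase that degrades lysophosphatidic acid at the cell surface, was at 1520.4, 2484, 1437, 1769 and 1137 CPM in normal and 867, 1070.2, 643 and 596 CPM in end stage libraries. Its highest end stage library was just below its lowest normal one. The log2 fold change was -1.07 ± 0.24 (adjusted p = 0.0293), and the call fell away without normal replicate 2, 3 or 4 or end stage replicate 4 or 5 (adjusted p 0.0524 to 0.209), with the compared groups alone (0.109), without libraries under 150000 counts (0.0942) and without the shallowest libraries (0.135).

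Fmo2, a flavin-containing monooxygenase, stood at 231, 232, 169, 194 and 125 CPM in normal and 58.5, 51.3, 46.3 and 73.3 CPM in end stage libraries, well apart. It had a log2 fold change of -1.80 ± 0.39 (SE; adjusted p = 0.0238), lost without normal replicate 1, 2 or 4 or end stage replicate 3 or 4 (adjusted p 0.0506 to 0.166) and without the shallowest libraries (0.0563). Gm4366, a predicted gene that the naming rule leaves out and that was chosen after its values were seen, was at 69.0 to 186 CPM in normal and 15.4 to 36.7 CPM in end stage libraries. Its log2 fold change was -2.24 ± 0.46 (adjusted p = 0.0181), lost without normal replicate 4 or 5 (adjusted p 0.0538 to 0.0562) and with thinning (0.0509). Gene lists below the median of all genes included the IGF list, with 8 of 11 negative and 0 called (median -0.63, -0.78 to -0.43 with each of the 9 libraries left out in turn). Igfbp3, an IGF-binding protein, stood at 1434, 1022, 1322, 1015 and 625 CPM in normal and 685, 667, 452 and 321 CPM in end stage libraries, overlapping at 1 normal library, and was not called (-1.01 ± 0.26, adjusted p = 0.0697). Igfbp5 was at -0.95 ± 0.36 and Igfbp7 at 0.61 ± 0.24. Angptl1, an angiopoietin-like protein, was at -1.39 ± 0.36 (adjusted p = 0.0889), the neurotrophin receptor Ntrk2 at -0.71 ± 0.24 and Gas1, a growth arrest and hedgehog co-receptor protein, at -0.65 ± 0.25, none called.

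Markers of other cell types were followed in the same libraries. Mesothelial markers were negative in 12 of 14 with 0 called (median -0.45), and their summed level was 9799, 6097, 8066, 6313 and 6024 CPM in normal and 6152, 6491, 3734 and 5117 CPM in end stage libraries, overlapping. Cldn15, a claudin, was at -1.20 ± 0.39. Endothelial markers summed to 738 to 889.6 CPM in normal and 623 to 946 CPM in end stage libraries, and skeletal muscle markers to 107 to 506 and 134 to 425 CPM. Epithelial and ovarian carcinoma markers, some of which mesothelium shares, summed to 249.72 to 564 CPM in normal and 140.4 to 636 CPM in end stage libraries, overlapping. Of 5 tested members 4 were negative and 0 called (median -0.42). That median ran from -0.88 (without end stage replicate 5) to 0.06 (without end stage replicate 3). Within the list, the keratin Krt18 was at 9.85 to 24.2 CPM in normal libraries. It was at 12.4, 11.5, 55.1 and 35.3 CPM in end stage libraries, from 4, 5, 135 and 4 counts. Adipocyte markers summed to 106 to 239 CPM in normal and 202 to 394 CPM in end stage libraries, overlapping, with all 4 tested members positive and 0 called (median 0.80). The tdTomato label of the tumour cells and the markers Epcam, Cd3e and Cd79a were not analysed here. The part of other cells in the calls above was not tested, beyond the sums given beside each.

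The day 7 and day 28 libraries placed the 24 called genes on the course of tumour growth. For all 24 the end stage mean was beyond the means of the 3 other groups, in the direction of the call. The 24 were picked for their difference between end stage and normal in these same libraries, which favours such an order. The share of all tested genes with such an order was not computed. Mean CPM in normal, day 7, day 28 and end stage libraries was 40.3, 59.9, 25.9 and 243 for Col8a1. For Slc16a3 it was 12.5, 16.7, 10.3 and 86.9, so both day 7 and day 28 lay near normal. For Fosb, at 3222, 1969.9, 1849 and 1520.0, and for Fmo2, at 190.2, 88.7, 63.4 and 57.4, the means of the early groups lay nearer to the end stage than to normal.

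Tested directly, end stage against day 28 gave 24 called genes of 5980 (0.401%), 23 higher (0.385%) and 1 lower (0.0167%), and end stage against day 7 gave 28 (0.468%), 24 higher (0.401%) and 4 lower (0.0669%). These comparisons share the end stage libraries with that against normal, so their results are not independent of it. Of the 24 genes called against normal, 10 were also called against day 28 and 11 against day 7. Against all 3 groups 6 genes were called, Cxcl14, F2r, Col8a1, Serpina3n, Slc16a3 and Bgn. F2r was at 2.79 ± 0.40 against day 28 (adjusted p = 0.000147) and 2.12 ± 0.35 against day 7 (adjusted p = 0.00167). Cxcl14, the one of the 6 with the highest day 28 mean relative to normal, was at 1.15 ± 0.25 (adjusted p = 0.0222) and 1.55 ± 0.24 (adjusted p = 0.00167). Lox, which missed the threshold against normal, was called against day 28 at 2.16 ± 0.30 (adjusted p = 0.000126) and against day 7 at 1.13 ± 0.27 (adjusted p = 0.0481). Fosb, Fmo2, Hbb-bs, Mgp and Svep1 were among the genes called against normal and against neither other group. Fosb was at -0.29 ± 0.24 and -0.38 ± 0.24 and Fmo2 at -0.14 ± 0.44 and -0.64 ± 0.39 against day 28 and day 7. The other 3 genes had larger differences that missed the threshold. Against day 28 and day 7, Mgp was at 2.0 and 1.9 (adjusted p = 0.0742 and 0.0868). Svep1 was at 1.33 and 1.13 (adjusted p = 0.0612 and 0.101) and Hbb-bs at 2.56 and 1.25 (adjusted p = 0.0975 and 0.591).

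**Figure D4:**
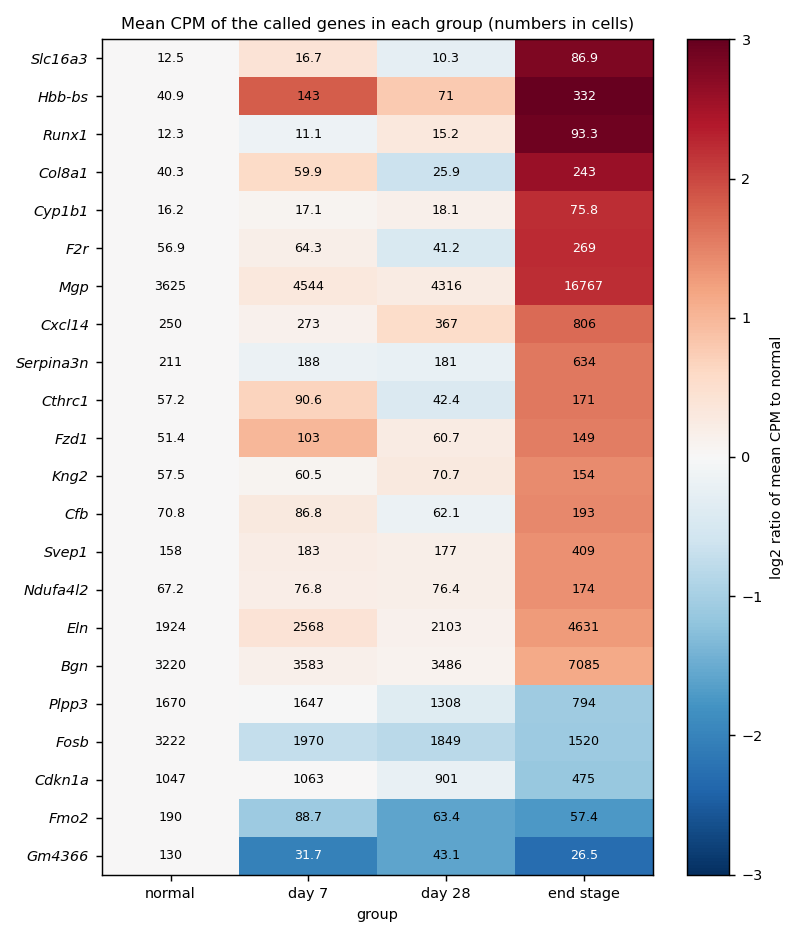
Mean CPM of 22 of the 24 called genes (rows) in normal, day 7, day 28 and end stage libraries (columns), printed in each cell, with colour for the log2 ratio of the mean to the normal mean. Most genes change colour in the end stage column, whereas Fosb, Fmo2, Gm4366, Fzd1 and Hbb-bs show colour in the day 7 column too.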

How the data were processed

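Sorted Col1a1-YFP positive fibroblasts were sequenced by MARS-seq, a 3′ tag method, from RNA of integrity number above 8, per the labels' protocols. The authors deposited raw counts per gene, per the file headers, together with log2 fold changes, p-values and thresholds of their own comparisons, of which only the authors' calls are quoted. The other deposited values, 19 columns of normalized counts, were not used. The submitters' processing notes name DESeq2 and GRCm39. No source used here states the aligner, counting tool, annotation, strand setting or handling of molecular identifiers, so counts of overlapping or near-identical genes are uncertain.

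Counts of 19 libraries were filtered (filterByExpr, minimum count 10), scaled by TMM and fitted in 1 model of 4 groups with edgeR 4.0.16 in R 4.3.3 (robust quasi-likelihood F test, two-sided, Benjamini-Hochberg over 5980 genes, threshold 0.05). The tested genes held 93.2% to 94.9% of the counts of a library. Standard errors were taken as the absolute log2 fold change divided by the root of F. Levels are TMM-scaled CPM, and list sums are CPM on library totals. Floors cover counting error only. No pair of libraries agreed within sampling noise, with chi-square per degree of freedom of 2.92 or more. The steps were tested on simulated data. Alternatives used DESeq2 1.42.0 and limma 3.58.1. Tables and figures were made with Python 3.11.15, pandas 2.3.3, numpy 2.4.6 and matplotlib 3.10.9.

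Genes named were up to 12 called genes in each direction among genes averaging 20 CPM or more whose groups did not overlap, predicted genes left out, up to 6 in each direction by level, up to 4 per list by p, and 12 genes followed throughout. The members, the 56 gene lists and these rules were chosen with earlier results of these data known. Hbb-bs and Cthrc1 are named through their lists, and 2 of the 24 called genes are not reported here.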

Additional observations from a re-analysis of the deposited data

Results flagged for a closer look

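The effects at the end stage and at the earlier times, both against the same normal libraries, were compared directly. Of the genes named, 14 differed between end stage and day 28 and 21 between end stage and day 7 (edgeR, adjusted p under 0.05 over 5980 genes). Among all 5980 tested genes, 24 (0.401%) and 28 (0.468%) did. Many named genes were chosen by their p for end stage against normal, which shares the end stage libraries. The counts among named genes are favoured by that choice. Log2 fold changes of end stage over day 28 above 0 were those of Cxcl14 (1.15), F2r (2.79), Col8a1 (3.24), Serpina3n (1.80), Slc16a3 (2.78), Bgn (1.03), Cfb (1.60), Eln (1.15), Cthrc1 (2.10), Lox (2.16), Serpine2 (1.66), Ccn2 (2.41) and Actn1 (1.78), and Cd34 (-1.004) was below 0. Log2 fold changes of end stage over day 7 above 0 were those of Cxcl14 (1.55), F2r (2.12), Col8a1 (2.01), Serpina3n (1.74), Slc16a3 (2.60), Bgn (0.99), Runx1 (3.11), Cyp1b1 (2.31), Kng2 (1.47), Lox (1.13), Serpine2 (1.48), Timp1 (2.30), Saa3 (3.99), Cd74 (2.48), Actn1 (1.76), Tagln (2.46), C4b (1.496), C1qa (2.96) and C1qb (3.97), and Cdkn1a (-1.17) and Plpp3 (-1.05) were below 0. Genes among these that were not called against normal include Lox, the collagen cross-linking enzyme, Actn1, an actin cross-linker, and C1qa and C1qb, which are members of the macrophage marker list. The part of macrophages in these differences was not tested.

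Single libraries stood far from the rest of their group in 17 of 226 groups of 4 or 5 libraries examined, where chance flags about 1 in 20. End stage replicate 4, the deepest library at 2449339 counts against 434324 for the next, stood apart for Col8a1 at 513 CPM (next 164), Cyp1b1 at 153 CPM (next 55.0), Fosb at 982 CPM (next 1686), Kng2 at 330.4 CPM (next 100.8), Ccn2 at 2631 CPM (next 596) and Sfrp1 at 678 CPM (next 293). End stage replicate 5 stood apart for Sdc3 at 91.6 CPM (next 59.0). Among normal libraries the values apart were Hba-a1 at 69.4 CPM in normal replicate 1 (next 34.6), Hbb-bt at 28.9 CPM in normal replicate 1 (next 5.52), Angptl1 at 2311 CPM in normal replicate 2 (next 1140.2), Nkd2 at 86.5 CPM in normal replicate 3 (next 34.7), Zfp36 at 3634 CPM in normal replicate 4 (next 2178), Rspo1 at 358 CPM in normal replicate 1 (next 152), Ramp2 at 401 CPM in normal replicate 2 (next 305), H2-Aa at 41.2 CPM in normal replicate 3 (next 21.3) and Il6 at 74.6 CPM in normal replicate 4 (next 15.2). Of the called genes, Col8a1, Cyp1b1, Fosb and Kng2 were touched in this way, each by end stage replicate 4, and without that library the call of Col8a1 held and those of Cyp1b1, Fosb and Kng2 were lost.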

How the results depend on the processing

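Called genes kept their direction under all alternatives in which they were tested for end stage against normal. Of the 24, 3 genes, Cxcl14, F2r and Col8a1, were called with each of the 9 libraries left out in turn. Runx1, Cyp1b1, F2r, Slc16a3, Kng2 and Gm4366 were among the called genes not tested with a stricter filter. Runx1 and Cyp1b1 were also not tested with thinning, nor Runx1 with the compared groups alone. Counts of calls moved more. Against normal, where 19 genes were higher and 5 lower, DESeq2 called 32 and 17, limma-voom with quality weights 32 and 18, and the deposited table's thresholds 30 and 12. No filter gave 29 higher, thinning to 200000 counts 10 higher, a stricter filter 8 lower, the compared groups alone 2 lower, and the immediate-early sum as a covariate 1 and 0. Leaving out the shallowest library of each group, chosen after seeing the data, gave 12 and 2. Against day 28, where 23 genes were higher and 1 lower, DESeq2 called 42 and 15, limma-voom 13 and 2, the deposited thresholds 46 and 10, a stricter filter 15 and 2 and the covariate 35 and 5. No filter gave 43 higher, thinning 13 higher, leaving out libraries under 150000 counts 9 and 0, and the compared groups alone 0 lower. Against day 7, where 24 genes were higher and 4 lower, DESeq2 called 38 and 21, limma-voom 85 and 39 and the covariate 2 and 1. A stricter filter gave 11 higher, thinning 10 higher, the removal of Rn18s-rs5, a ribosomal RNA gene, 15 higher, the deposited thresholds 9 lower and leaving out libraries under 150000 counts 2 lower. With 1 library left out in turn, higher and lower calls ranged from 3 to 33 and 0 to 10 against normal, from 5 to 44 and 0 to 9 against day 28, and from 1 to 25 and 0 to 9 against day 7. The cause of these moves was not tested.

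Deviations of log2 CPM from the group means were correlated between end stage and normal libraries over 1751 genes. Same-numbered libraries gave -0.09, 0.41, 0.36 and 0.28 for replicates 2 to 5. These were not over 0.1 in every pair, so replicate numbers were not read as pairs. Differently numbered libraries ran from -0.50 (end stage replicate 4 with normal replicate 3) to 0.46 (end stage replicate 3 with normal replicate 1). With the replicate number as a block, 20 genes were higher and 10 lower against normal, 22 and 4 against day 28, and 21 and 8 against day 7. Signs turned for 3 genes that were not called. Ccl2 was at -0.047 with limma-voom, -0.13 with the replicate block and -0.015 without the shallowest libraries, and at -1.01 to 0.63 with each library left out in turn, below 0 without normal replicate 1 (-0.038), normal replicate 3 (-0.028) or end stage replicate 4 (-1.01). Il6 was at -0.11 with limma-voom and -0.074 without the shallowest libraries, and at -0.38 to 1.34 with each library left out, below 0 without end stage replicate 4. H2-Ab1 was at -0.039 with the covariate. Of the genes named but not called, 25 were called under some alternative. The median log2 fold change of all genes moved from -0.02 to -0.03 and -0.07 with other scalings. A count of 10 corresponds to 32.8 CPM at the median depth, so a level below that rests on fewer than 10 counts in a library of that depth, and end stage replicate 5 has the least precision of the 9.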

Other observations

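Genes of protein synthesis and respiration stood slightly higher at the end stage as lists, with no member called. Of 46 tested nuclear genes of oxidative phosphorylation, 38 were positive (median 0.22, against -0.02 over all tested genes, and 0.18 (without normal replicate 1) to 0.32 (without normal replicate 2)), with the ATP synthase subunit Atp5j2 at 0.78 ± 0.31. Of 77 cytosolic ribosomal protein genes, 64 were positive (median 0.22, and 0.12 (without end stage replicate 4) to 0.30 (without end stage replicate 5)), with Rps19 at 0.51 ± 0.23. Of 24 proteasome genes, 18 were positive (median 0.25). The 8 mitochondrially encoded genes had a median of 0.01, which ranged from -0.28 (without normal replicate 2) to 0.64 (without normal replicate 4). Of 31 lysosome and cathepsin genes, 19 were positive (median 0.05), with the proteases Ctsd at 0.69 ± 0.22 and Lgmn at 1.20 ± 0.43. Of 11 tested cell cycle genes, 8 were positive (median 0.43), with Cdk4 at 0.58 ± 0.24.

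The cholesterol and fatty acid list and the heat shock list had medians below that of all genes, again with no member called. Of 19 tested cholesterol and fatty acid genes, 12 were negative (median -0.20), with the desaturase Scd2 at -0.99 ± 0.32, whereas the fatty acid carrier Fabp4, which is also on the adipocyte marker list, was at 1.60 ± 0.46. Of 16 heat shock genes, 13 were negative (median -0.27), with Hspa1a at -0.85 ± 0.43. Per1 and Tsc22d3, which glucocorticoids induce, were at -1.08 ± 0.33 and -0.86 ± 0.29, neither called. Of 26 metallothionein and antioxidant genes, 17 were positive and 0 called (median 0.18), with Gclc, of glutathione synthesis, at -1.31 ± 0.45. Slit3, a guidance ligand, was at 1.06 ± 0.29 (adjusted p = 0.103).

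Followed genes too low to be tested were Lcn2, lipocalin 2, and Cd274, the checkpoint ligand PD-L1. Lcn2 had 3, 3, 0, 0 and 2 counts in normal replicates 1 to 5 and 4, 1, 69 and 8 counts in end stage replicates 2 to 5. The 69 came from the deepest library, of 2449339 counts, and the 8 from the shallowest, of 113163 counts. Raw counts of such libraries do not compare levels. Cd274 had 1, 3, 1, 1 and 1 counts in normal and 1, 1, 6 and 0 counts in end stage libraries, and no difference was detectable at this depth.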
